A study of Saccharomyces cerevisiae with 15 samples.

Results

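The genes described here encode proteins of the yeast mitochondrial ribosome. They were chosen by symbol, as the genes named MRP, MRPL, MRPS or RSM followed by a number in the platform annotation, without MRP8. The array measured 65 such genes of 5449 genes in all, 37 of the large (54S) subunit and 28 of the small (37S) subunit. Each had a single probe set, and all 65 were found in the RefSeq gene table of assembly R64. The RefSeq table holds 66 genes with such symbols, and MRP35 had no probe set in the value table.

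The messengers were those of budding yeast (Saccharomyces cerevisiae), laboratory strain YPH499, with plasmid pEG(KG) in every culture. The Control group carried the empty plasmid, and the other groups carried human IRAK4, its catalytically inactive form IRAK4(KD), IRAK1 or IRAK2 behind the galactose-inducible GAL1 promoter. IRAK proteins, kinases or kinase-like, relay signals from Toll-like receptors and from the receptor of interleukin-1 in human cells. All cultures, Control included, spent 18 h in raffinose medium and then 6 h in galactose medium from an optical density of 0.3, at 30 °C, and 15 Affymetrix arrays were hybridised, 3 biological replicates in each of 5 groups. The arrays held 0 probe sets for human IRAK genes, so the amount of the introduced RNA was not measured, and no label says how much protein was made.

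Mitochondrial ribosomes translate the few proteins encoded by mitochondrial DNA, most of them core subunits of the respiratory chain and of the ATP synthase. Nearly all of their own proteins are encoded in the nucleus, made in the cytosol and imported. In budding yeast the demand for them depends on the carbon source, since cells ferment when glucose is plentiful and respire more on poorer sugars. The RNA-binding protein Puf3 is known to bind the messenger RNAs of many yeast mitochondrial ribosomal proteins.

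Values are the authors' log2 values, and a difference is the mean of the first group minus that of the second, ± limma's standard error, over 3 arrays in each group. A gene is said to rise, to fall or to be called only where the adjusted p of limma (Benjamini-Hochberg, over all 5449 genes) was under 0.05. Levels of different genes are not compared, because each probe set has its own response. The median over all genes of an array lay between 8.72 and 8.87. Replicate arrays of a group correlated across genes at 0.993 or more, except that IRAK1 replicate 1 correlated at 0.968 with each of the other 2 IRAK1 arrays. In the mitoribosomal genes IRAK1 replicate 1 exceeded the average of its 2 fellow arrays in 42 of 65, with a median gap of 0.15 and a range of -0.50 to 0.62. A bulk array cannot tell a lower amount of a messenger in each cell from a smaller number of cells that hold it.

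Across the 5 groups, 63 of the 65 genes differed by limma's moderated F test, where 81.3% of all genes did. The exceptions were MRP20 (adjusted p = 0.242) and MRPS12 (adjusted p = 0.0633). The median over the 65 genes was 9.53 to 9.65 on the Control arrays. It was 9.40 to 9.57 on the IRAK4 arrays and 9.75 to 9.86 on the IRAK4(KD) arrays. It was 8.88 to 9.04 on the IRAK1 arrays and 9.77 to 9.92 on the IRAK2 arrays. The IRAK1 arrays therefore lay below the arrays of all other groups in this median, and those of IRAK2 and IRAK4(KD) lay above those of Control. IRAK1 had the lowest group mean in 64 of the 65 genes, and the highest mean was that of IRAK4(KD) in 32, IRAK2 in 30, Control in 2 and IRAK1 in 1. The most frequent order of the 5 means was IRAK1, IRAK4, Control, IRAK4(KD), IRAK2 from low to high, in 21 genes.

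**Figure D1:**
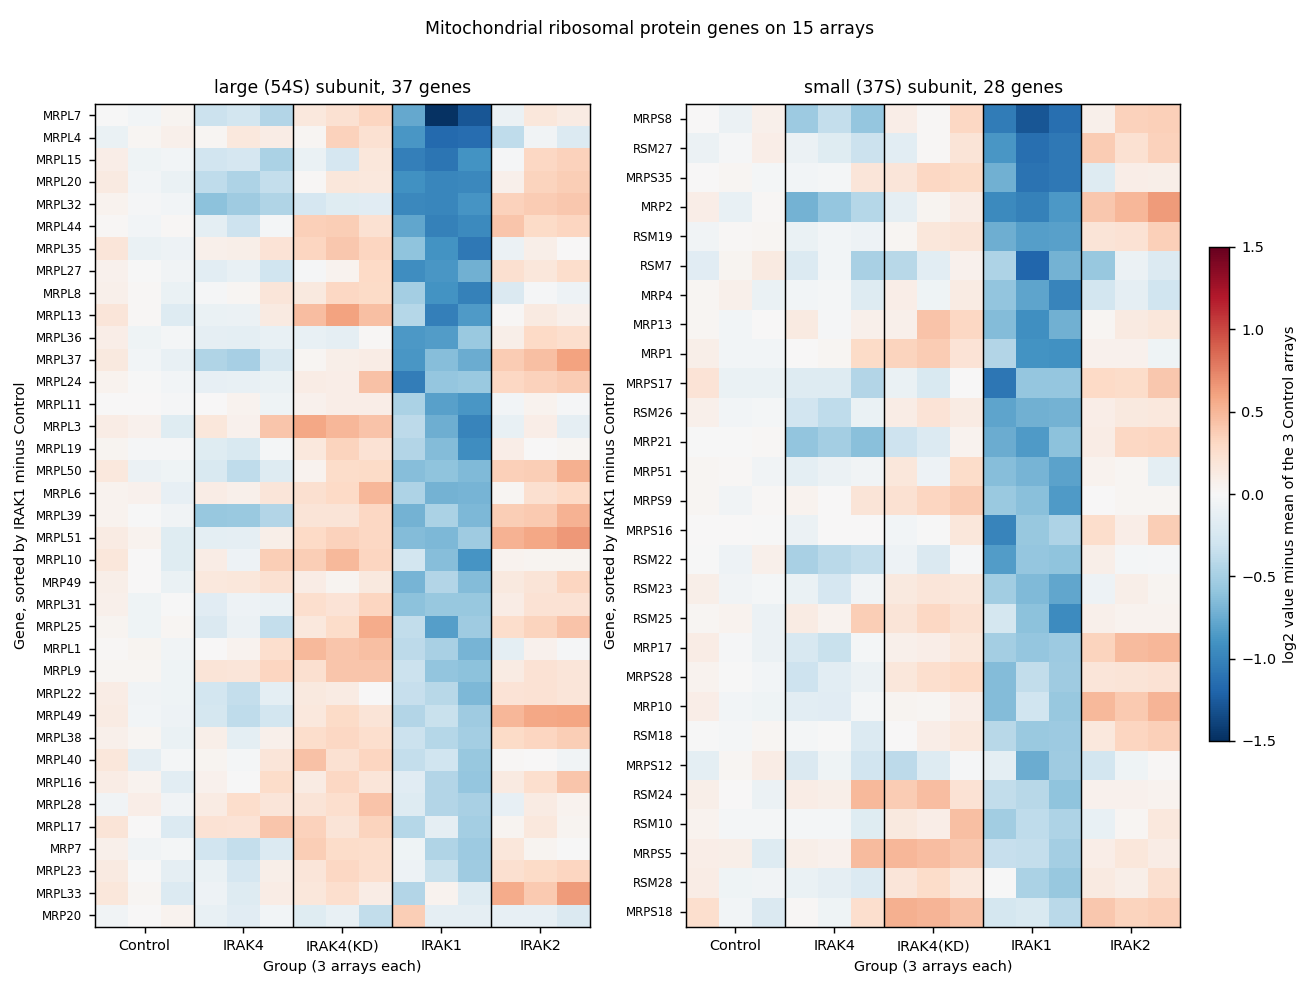
Log2 values of the 65 mitoribosomal genes on 15 arrays, each minus the gene's mean over the 3 Control arrays (colour scale cut at ±1.5, blue lower, red higher), in columns by group with 3 arrays each and rows sorted by the difference of IRAK1 from Control. The IRAK1 columns are blue in nearly every row, with MRP20 and MRPL33 at the bottom of the large subunit, and the IRAK4(KD) and IRAK2 columns are mostly red.

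The 5 genes with the smallest F test p show how far the groups stood apart. MRPL32 (YCR003W, RefSeq name bL32m) encodes a large subunit protein that is matured by the m-AAA protease of the inner membrane. Its log2 values were 10.41, 10.34 and 10.31 in Control, 9.73, 9.82 and 9.90 in IRAK4 and 10.10, 10.17 and 10.18 in IRAK4(KD). They were 9.38, 9.37 and 9.47 in IRAK1 and 10.70, 10.73 and 10.75 in IRAK2. None of the 5 groups of arrays overlapped with another, and the F test gave an adjusted p of 9.75e-09.

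MRP2 (YPR166C, uS14m) encodes a small subunit protein of the bacterial S14 family. Its values were 10.38, 10.17 and 10.30 in Control, 9.57, 9.71 and 9.85 in IRAK4 and 10.15, 10.32 and 10.39 in IRAK4(KD). They were 9.33, 9.27 and 9.42 in IRAK1 and 10.69, 10.78 and 10.92 in IRAK2. The Control and IRAK4(KD) arrays overlapped, and IRAK2, IRAK4 and IRAK1 each stood apart (F test, adjusted p = 1.03e-07).

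MRPL44 (YMR225C, mL53) encodes a large subunit protein without a bacterial counterpart. It read 9.72, 9.65 and 9.71 in Control, 8.91, 8.68 and 8.74 in IRAK1, and 10.11, 9.98 and 10.02 in IRAK2. It read 9.55, 9.38 and 9.67 in IRAK4 and 10.05, 10.06 and 9.92 in IRAK4(KD). RSM19 (YNR037C, uS19m), which encodes a small subunit protein, read 9.64, 9.71 and 9.72 in Control, 8.96, 8.87 and 8.88 in IRAK1, and 9.89, 9.91 and 10.05 in IRAK2. It read 9.59, 9.65 and 9.62 in IRAK4 and 9.72, 9.86 and 9.89 in IRAK4(KD). In both genes the IRAK1 arrays lay below all 12 others (F test, adjusted p = 1.10e-07 for MRPL44 and 1.47e-07 for RSM19). MRPL39 (YML009C, bL33m), the shortest gene of the set, is described with IRAK4 below.

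**Figure D2:**
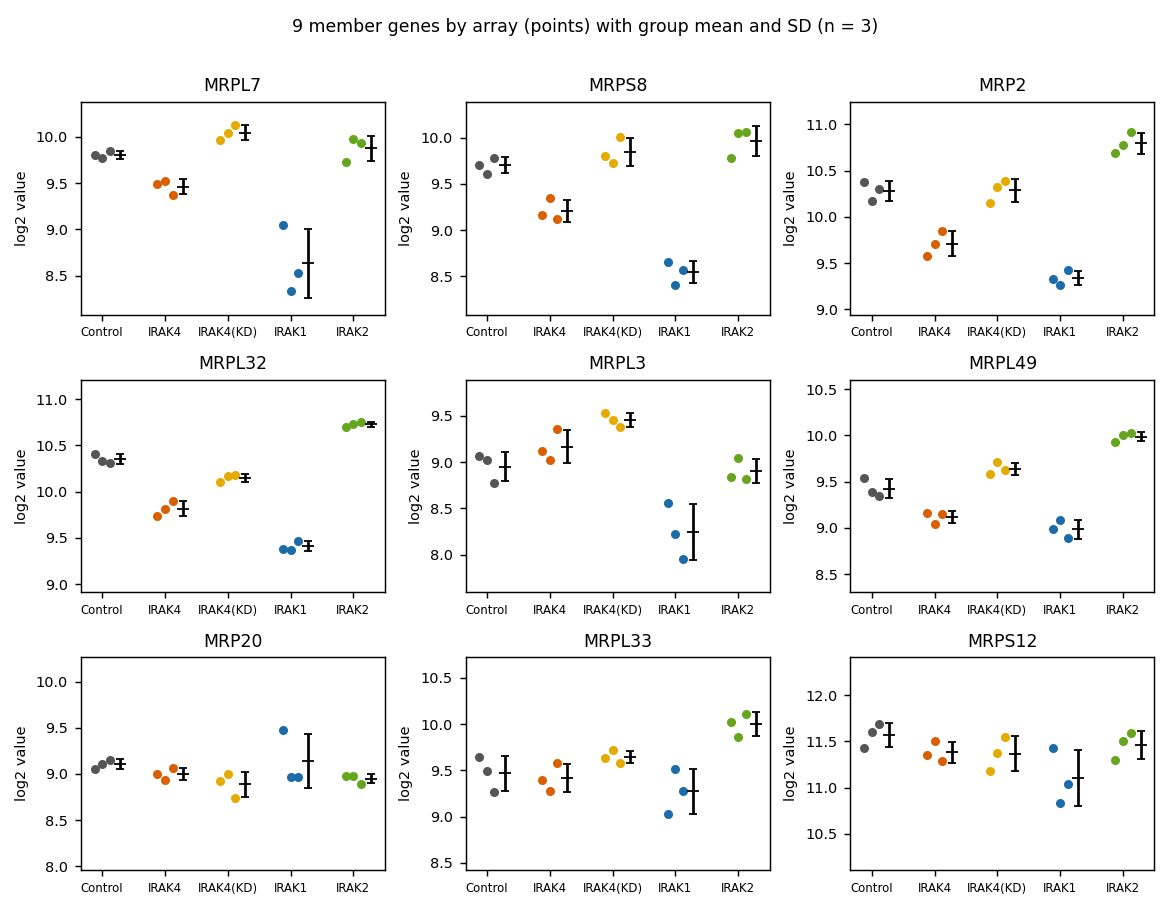
Log2 values of 9 mitoribosomal genes by array (points, 3 per group) with the group mean and SD (black, n = 3), all on axes of the same span. In the top row and in MRPL32 and MRPL3 the IRAK1 points lie below those of the other groups, whereas in MRP20, MRPL33 and MRPS12 they overlap with the Control points.

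IRAK1 was the group in which the mitoribosomal genes differed most from Control. Of the 65 genes 63 fell and 0 rose, where 28.2% of all genes fell and 30.6% rose. The median difference was -0.65, against 0.02 over all genes. Falls ranged from -0.30 to -1.17. Without IRAK1 replicate 1, the array that stood apart, 63 genes fell and the median was -0.68. In 59 genes the 3 IRAK1 arrays lay wholly below the 3 Control arrays, as they did in 28.6% of all genes. In 53 genes they lay below all 12 other arrays, which was true of 13.4% of all genes. The 4 genes that fell although their arrays overlapped were MRPL17, MRPL23, MRPS12 and RSM28, of which MRPL17 (-0.36), MRPL23 (-0.31) and RSM28 (-0.34) are named because the count is small, after their values were seen. Both subunits took part, with 35 of 37 large subunit genes (median -0.62) and 28 of 28 small subunit genes (median -0.68) called lower. The 40 genes whose RefSeq names give a bacterial counterpart included 38 that fell (median -0.62), and all 24 without one fell (median -0.72). RSM22, without such a name, fell as well.

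The largest fall was that of MRPL7 (YDR237W, uL5m), which encodes a large subunit protein of the bacterial L5 family. Its log2 values were 9.80, 9.77 and 9.85 in Control and 9.05, 8.33 and 8.52 in IRAK1, with 9.49, 9.53 and 9.37 in IRAK4, 9.97, 10.04 and 10.13 in IRAK4(KD) and 9.72, 9.98 and 9.93 in IRAK2. Every IRAK1 array was below the other 12, but they differed among themselves more than those of other groups, with an SD of 0.37, the highest among the 65 genes in IRAK1. The difference from Control was -1.17 ± 0.14, or 2.26-fold lower (limma, adjusted p = 7.43e-06).

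MRPS8 (YMR158W, uS8m), a small subunit protein gene of the S8 family, read 9.71, 9.61 and 9.78 in Control and 8.65, 8.41 and 8.57 in IRAK1. The groups did not overlap, and the difference was -1.16 ± 0.11 (limma, adjusted p = 6.68e-07). MRPL4 (YLR439W, uL29m), a large subunit gene of the L29 family, read 9.18, 9.31 and 9.36 in Control and 8.41, 8.12 and 8.13 in IRAK1, a difference of -1.06 ± 0.11. RSM27 (YGR215W, mS33), a small subunit gene, read 8.69, 8.76 and 8.88 in Control and 7.90, 7.65 and 7.70 in IRAK1, a difference of -1.03 ± 0.10. MRPL15 (YLR312W-A, mL57), which encodes a large subunit protein with an RNase III-like fold, read 9.05, 8.88 and 8.90 in Control and 7.92, 7.85 and 8.05 in IRAK1, a difference of -1.003 ± 0.12. These 5 genes, 3 of the large and 2 of the small subunit, were the ones that fell by at least 1 log2 unit, and each did so with no overlap between the groups.

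Genes with other known roles fell by less. MRP51 (YPL118W, bS1m), whose protein acts with the leaders of mitochondrial messengers, differed by -0.71 ± 0.09. MRP10 (YDL045W-A, mS37), a twin-cysteine protein of the small subunit, differed by -0.51 ± 0.09, and MRP1 (YDR347W, mS43) by -0.75 ± 0.12. MRPL36 (YBR122C, bL31m) differed by -0.75 ± 0.09, and RSM22 (YKL155C), a methyltransferase-like protein linked to small subunit assembly, by -0.67 ± 0.09. All 5 had IRAK1 arrays wholly below those of Control, and all were called (limma, adjusted p from 9.83e-06 for MRPL36 to 0.00031 for MRP10). MRP49 (YKL167C, mL61) and MRPL50 (YNR022C, bL9m), both of the large subunit, differed by -0.60 ± 0.08 and -0.64 ± 0.09 and were also called. MRPL1 (YDR116C, uL1m) and MRPS5 (YBR251W, uS5m) differed by -0.52 ± 0.09 and -0.40 ± 0.11, again called with no overlap.

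MRP20 and MRPL33 were the genes without a call. MRP20 (YDR405W, uL23m) encodes a protein at the exit of the polypeptide tunnel. It read 9.05, 9.11 and 9.15 in Control and 9.48, 8.97 and 8.97 in IRAK1, so that IRAK1 replicate 1 lay above and the other IRAK1 arrays below every Control array. Its difference was 0.03, and -0.14 without IRAK1 replicate 1, not called in either case. MRPL33 (YMR286W, uL30m) read 9.65, 9.50 and 9.27 in Control and 9.03, 9.52 and 9.27 in IRAK1. Here it was IRAK1 replicate 2 that read high, and the difference of -0.19 became -0.32 and was called when that array was left out.

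MRPS12 and MRP7 show where the call was close. MRPS12 (YNR036C, uS12m) encodes the protein of the decoding centre, and the annotation places it next to RSM19 in the same direction. It read 11.43, 11.60 and 11.69 in Control and 11.43, 10.83 and 11.04 in IRAK1, with IRAK1 replicate 1 level with the lowest Control array. Its difference of -0.47 ± 0.14 (limma, adjusted p = 0.0109) became -0.34 and lost the call without IRAK1 replicate 2. MRP7 (YNL005C, bL27m) differed by -0.35 ± 0.11 (adjusted p = 0.0121), which became -0.26 and lost the call without IRAK1 replicate 3. MRPS18 (YNL306W, uS11m) differed by -0.30 ± 0.11 (adjusted p = 0.0328), and its call was lost at -0.17 without Control replicate 1, at -0.31 without Control replicate 2 and at -0.24 without IRAK1 replicate 3. Neither MRP7 nor MRPS18 was called with only the 6 arrays of IRAK1 and Control in the fit.

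Cytosolic ribosomal protein genes moved the same way in IRAK1, and 121 of 127 fell and 1 rose, with a median of -0.52. Of 45 genes of the respiratory chain and ATP synthase 35 fell and 2 rose, with a median of -0.42. The part of a general change in ribosome or respiratory gene expression in the values of the mitoribosomal genes was not tested.

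**Figure D3:**
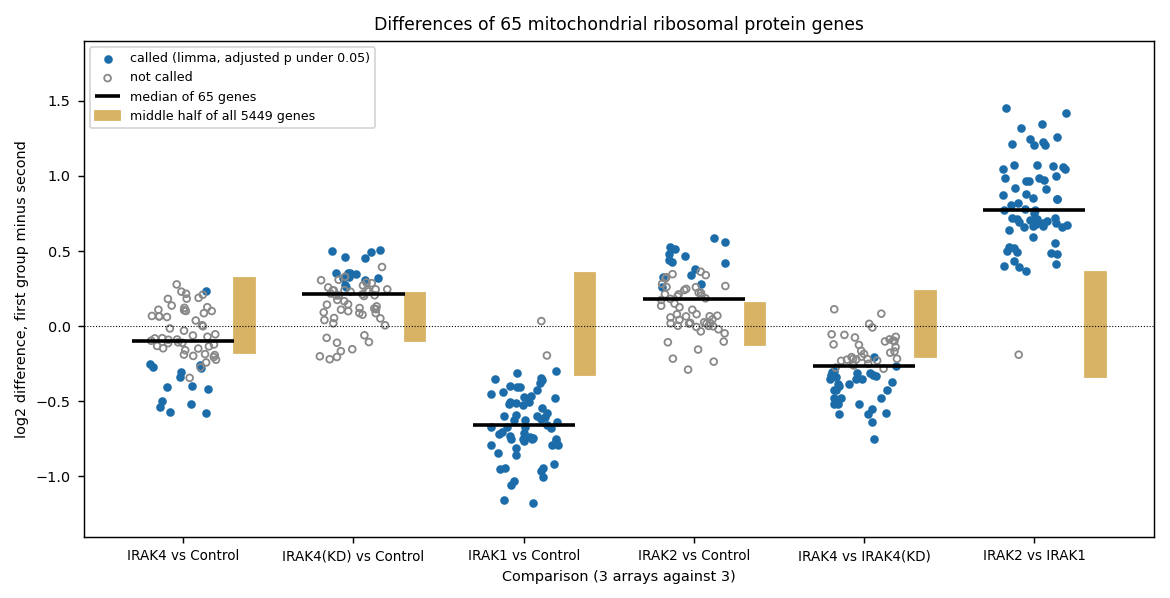
Log2 differences of the 65 mitoribosomal genes in 6 comparisons of 3 arrays against 3 (points, filled where called by limma at an adjusted p under 0.05, black line the median of the 65 genes), with a bar beside each from the lower to the upper quartile of all 5449 genes. The points of IRAK1 against Control lie almost wholly below 0 with a median of -0.65, and those of IRAK2 against IRAK1 almost wholly above 0 with a median of 0.77.

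The rest of the mitochondrial translation apparatus was compared with the same IRAK1 and Control arrays, through lists written from general knowledge. Of 15 mitochondrial ribosomal proteins whose symbols the rule does not reach, 12 fell and 2 rose (median -0.70). MNP1, which encodes the mitochondrial counterpart of the bacterial stalk protein L7/L12, read 9.98, 9.83 and 9.67 in Control and 9.15, 8.71 and 8.68 in IRAK1, a difference of -0.98 ± 0.12. PPE1, also annotated as a carboxyl methylesterase, rose by 1.04 ± 0.10, and EHD3, also a 3-hydroxyisobutyryl-CoA hydrolase, rose by 0.43 ± 0.11. PPE1 read 7.25, 7.29 and 7.36 in Control and 8.34, 8.44 and 8.24 in IRAK1, and EHD3 read 9.28, 9.23 and 9.35 in Control and 9.99, 9.50 and 9.65 in IRAK1. The 2 risers therefore encode proteins that are also known as enzymes, and in both the groups did not overlap.

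Among 13 translation factors 7 fell and 2 rose (median -0.32). TUF1, the mitochondrial elongation factor that brings aminoacyl-tRNA to the ribosome, read 11.60, 11.44 and 11.24 in Control and 10.37, 9.92 and 9.94 in IRAK1. Its IRAK1 arrays lay far below those of Control, with a difference of -1.35 ± 0.13 (limma, adjusted p = 1.26e-06). The elongation factor genes MEF1 and MEF2 differed by -0.65 ± 0.20 and -0.70 ± 0.11, and both were called. The risers were GTF1 (0.36 ± 0.12) and PET112 (0.44 ± 0.13), which encode subunits of the amidotransferase that makes glutaminyl-tRNA in mitochondria.

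Of 14 mitochondrial tRNA synthetase genes 7 fell and 0 rose (median -0.27), among them MST1 at -0.78 ± 0.17, MSW1 at -0.74 ± 0.18 and MSK1 at -0.69 ± 0.10. Of 12 genes of ribosome assembly and rRNA modification 6 fell and 2 rose (median -0.28). MAM33, a matrix protein linked to ribosome assembly and translation, read 9.68, 9.53 and 9.48 in Control and 8.67, 8.67 and 8.48 in IRAK1, a difference of -0.96 ± 0.10. Of 16 translational activators of single mitochondrial messengers 7 fell and 1 rose (median -0.12), with CBP6, which acts on the cytochrome b messenger, at -0.61 ± 0.11. Of 5 genes of membrane insertion 4 fell (median -0.61), among them OXA1 (-0.67 ± 0.10) and MBA1 (-0.68 ± 0.13), whose proteins bind the ribosome at the inner membrane. Genes of mitochondrial transcription and genome upkeep did not move together, with 1 of 9 lower and 2 higher (median -0.06). The one that fell was MTF1, the specificity factor of the mitochondrial RNA polymerase, at -0.77 ± 0.08, whereas HMI1 and ABF2 rose.

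**Figure D4:**
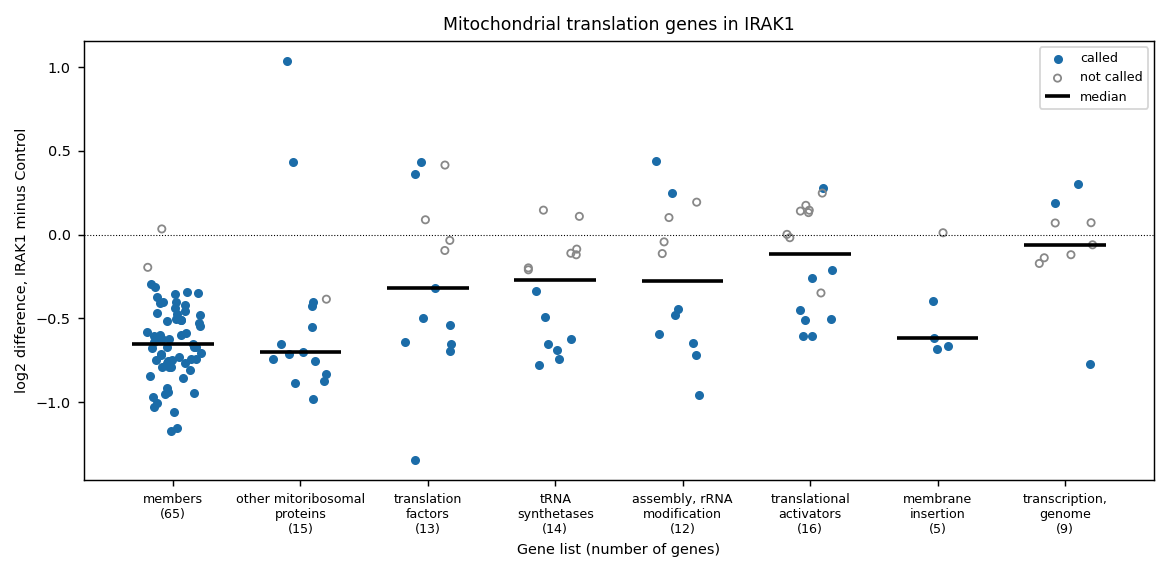
Log2 differences of IRAK1 from Control for the 65 mitoribosomal genes and for 7 lists of other mitochondrial translation genes (points, filled where called by limma at an adjusted p under 0.05, black line the list median). The medians are -0.65 in the mitoribosomal genes, -0.70 in the other mitoribosomal proteins and -0.06 in the genes of transcription and genome upkeep, and TUF1 is the lowest point at -1.35.

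A list of 11 regulators held 5 genes that fell and 1 that rose in IRAK1. PUF3 read 8.49, 8.35 and 8.30 in Control and 6.64, 7.59 and 7.48 in IRAK1. All 3 IRAK1 arrays were below Control but replicate 1 was far lower than the others, and the difference was -1.14 ± 0.20 (limma, adjusted p = 0.000237). HAP4, the activating subunit of the CCAAT-binding complex, read 10.88, 10.87 and 10.75 in Control and 10.62, 9.93 and 9.96 in IRAK1, a difference of -0.67 ± 0.14. HAP3, a subunit of the same complex, differed by -0.66 ± 0.12. IFH1, a coactivator of cytosolic ribosomal protein genes, differed by -0.69 ± 0.20, and the heme-responsive activator HAP1 rose by 0.74 ± 0.08. These are levels of messenger RNA, and the activity of the factors was not measured.

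IRAK2 differed from Control in the opposite direction, with a smaller median difference. Of the 65 genes 14 rose and 0 fell, where 5.82% of all genes rose and 3.38% fell. The median difference was 0.18, against 0.01 over all genes, and the rises ranged from 0.26 to 0.59. In 54 genes the difference was above 0, called or not, where it was above 0 in 2860 of all 5449 genes. In 31 genes all IRAK2 arrays lay above those of Control, as in 23.2% of all genes. Of the large subunit genes 9 of 37 rose and of the small subunit genes 5 of 28. The number of rises changed when single arrays were left out. Dropping Control replicate 2 or 3 left 8 each (12.3%), and dropping IRAK2 replicate 3 left 6 (9.23%). Without IRAK1 replicate 1, which enters this comparison only through the shared estimate of the spread, 22 were called (33.8%). The share of all genes in these settings is not given here.

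The largest rise was that of MRPL51 (YPR100W, mL43), a large subunit gene without a bacterial counterpart. It read 9.19, 9.11 and 8.88 in Control and 9.59, 9.65 and 9.71 in IRAK2, and the difference was 0.59 ± 0.09, or 1.50-fold (limma, adjusted p = 0.00146). MRPL49 (YJL096W, bL21m), of the L21 family, read 9.54, 9.38 and 9.34 in Control and 9.93, 10.01 and 10.02 in IRAK2, a difference of 0.56 ± 0.08 (adjusted p = 0.000903). In both genes every IRAK2 array was above every Control array. MRPL33, which was not called in IRAK1, read 10.02, 9.86 and 10.11 in IRAK2, and its difference was 0.53 ± 0.13 (adjusted p = 0.0205). That call was lost without Control replicate 2 (0.54), Control replicate 3 (0.43), IRAK2 replicate 1 (0.51) or IRAK2 replicate 3 (0.47).

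MRP2 rose by 0.51 ± 0.10 (limma, adjusted p = 0.00652) and MRPL37 (YBR268W, mL54) by 0.48 ± 0.10 (adjusted p = 0.00852). MRPL37 read 9.96, 9.78 and 9.71 in Control and 10.19, 10.27 and 10.42 in IRAK2, and its call was lost at 0.42 without IRAK2 replicate 3. MRP10, MRPL39 and MRPL32 rose by 0.46 ± 0.09, 0.43 ± 0.08 and 0.38 ± 0.07. MRPL50 rose by 0.42 ± 0.09, a call lost without Control replicate 2 (0.38), Control replicate 3 (0.39) or IRAK2 replicate 3 (0.36). MRPL44 and RSM19 rose by 0.34 ± 0.09 and 0.26 ± 0.07. Their calls were lost when any array of Control or IRAK2 was left out, at 0.31 to 0.37 for MRPL44 and 0.21 to 0.29 for RSM19.

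The genes that rose in IRAK2 were short genes. Gene length, from the RefSeq table, ran from 213 to 1887 bp in the 65 genes with a median of 714 bp. Of the 33 genes up to that median 14 rose, and of the 32 longer ones 0 rose, with median differences of 0.28 and 0.03. The same comparison over all genes of the array gave 189 rises among 1245 genes up to 714 bp (15.2%) and 128 among 4204 longer ones (3.04%). Across genes, the difference of IRAK2 from Control correlated with log2 gene length at r = -0.68 (Spearman's rho -0.70) in the 65 genes and at r = -0.26 (rho -0.27) in all 5449. These are descriptions, since genes share the same 6 arrays and are not independent replicates. In IRAK1 against Control the corresponding r in the 65 genes was -0.02, and 32 of the 33 short and 31 of the 32 long genes fell. The part of transcript length, RNA quality or labelling in the values of IRAK2 was not tested.

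**Figure D5:**
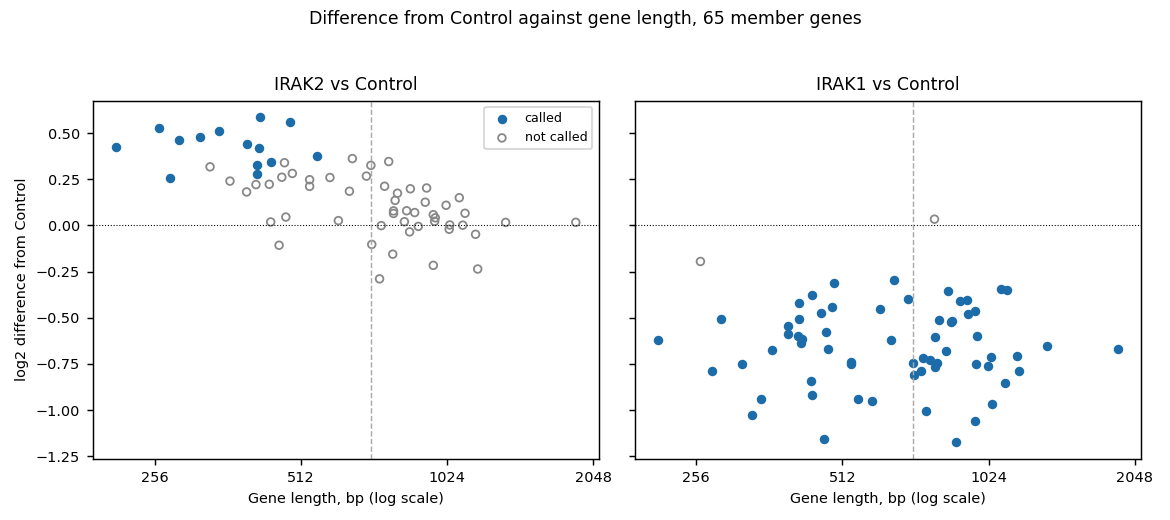
Log2 difference from Control against gene length (bp, log scale) for the 65 mitoribosomal genes in IRAK2 (left) and IRAK1 (right), filled where called by limma at an adjusted p under 0.05, with the median length of 714 bp as a dashed line. In IRAK2 all 14 called genes lie left of the line, and in IRAK1 called genes lie on both sides.

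Most other genes of mitochondrial translation were not called in IRAK2, where 5.82% of all genes rose and 3.38% fell. Of the 15 other mitoribosomal proteins 1 rose, QRI5, which read 10.23, 10.26 and 10.30 in Control and 10.74, 10.54 and 10.72 in IRAK2 (difference 0.40, limma, adjusted p = 0.0109). Of the 13 translation factors the peptidyl-tRNA hydrolase gene PTH2 and the recycling factor gene RRF1 rose (0.31 and 0.28). PTH1, another peptidyl-tRNA hydrolase gene, fell by 0.83, with 6.08, 6.46 and 6.35 in Control and 5.53, 5.48 and 5.39 in IRAK2. PET122, an activator of the COX3 messenger, fell by 0.67. Both falls were larger than any difference of the 65 genes, which ran from -0.29 to 0.59. However, PTH1 and PET122 read low, below the lower quartile of all genes (7.72 to 7.76) on every Control and IRAK2 array. Cytosolic ribosomal protein genes had 4 rises and 0 falls of 127 (median 0.10), and the respiratory genes 5 rises and 0 falls of 45 (median 0.06).

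IRAK2 and IRAK1 were also compared with each other. Of the 65 genes 64 were higher in IRAK2 and 0 were lower, where 30.6% of all genes were higher and 29.2% lower. The median difference was 0.77, against 0.01 over all genes, and in 17 genes it was at least 1 log2 unit. The IRAK2 arrays lay wholly above those of IRAK1 in 62 genes, as in 31.3% of all genes. MRP2 had the largest difference at 1.45 ± 0.10, or 2.74-fold (limma, adjusted p = 2.54e-08), followed by MRPS8 at 1.42 ± 0.11, RSM27 at 1.34 ± 0.10, MRPL32 at 1.32 ± 0.07 and MRPL44 at 1.26 ± 0.09. In all 5 the IRAK2 arrays lay above the IRAK1 arrays without overlap. MRP20 was again the gene without a call, at -0.19. MRPS12 and RSM7 (YJR113C, uS7m) were called at 0.37 ± 0.14 and 0.50 ± 0.19 although their arrays overlapped. Both lost the call without IRAK1 replicate 2 (0.23 and 0.30) or without IRAK2 replicate 2 (0.35 and 0.40) or 3 (0.30 and 0.46), and MRPS12 also without IRAK1 replicate 3 (0.34). Of the 127 cytosolic ribosomal protein genes 122 were higher in IRAK2 than in IRAK1 (median 0.62). The difference of IRAK2 from IRAK1 also correlated with log2 gene length, at r = -0.43 in the 65 genes and -0.16 in all genes. Its median was 0.97 in the 33 mitoribosomal genes up to 714 bp and 0.69 in the 32 longer ones. The part of length in these values was not tested.

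The catalytically inactive IRAK4(KD) also gave rises. Of the 65 genes 15 rose and 0 fell, where 11.7% of all genes rose and 6.00% fell, so that the share of rises among the mitoribosomal genes was 23.1%. The median difference was 0.21, against 0.07 over all genes. In 56 genes the difference was above 0, called or not, where it was above 0 in 3380 of all 5449 genes. In 38 genes all IRAK4(KD) arrays lay above those of Control, as in 32.7% of all genes. Of the large subunit genes 11 of 37 rose (29.7%) and of the small subunit genes 4 of 28 (14.3%, near the 11.7% of all genes). The count changed when single arrays were left out, while the median stayed between 0.17 and 0.26 over all alternatives. Only 1 rise (1.54%) was left when Control replicate 3 was dropped and 4 (6.15%) when Control replicate 2 was. Dropping IRAK4(KD) replicate 1, 2 or 3 left 8 (12.3%), 4 (6.15%) or 7 (10.8%). Without Control replicate 1 there were 17 rises (26.2%). Without IRAK1 replicate 1, which enters only through the shared spread, there were 29 (44.6%). The share of all genes in these settings is not given here, so whether the share of rises stayed above it cannot be told.

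MRPL13 (YKR006C, mL50) and MRPL3 (YMR024W, mL44), both of the large subunit and without a bacterial counterpart, had the largest rises. MRPL13 read 9.59, 9.42 and 9.22 in Control and 9.87, 10.01 and 9.86 in IRAK4(KD), a difference of 0.50 ± 0.13 (limma, adjusted p = 0.0201). MRPL3, whose protein has an RNase III-like fold, read 9.06, 9.02 and 8.78 in Control and 9.53, 9.45 and 9.38 in IRAK4(KD), a difference of 0.50 ± 0.14 (adjusted p = 0.0257). The groups did not overlap in either gene, but both calls were lost without Control replicate 2 (0.51 and 0.53), Control replicate 3 (0.41 and 0.41) or IRAK4(KD) replicate 2 (0.46 and 0.50), and that of MRPL3 also without IRAK4(KD) replicate 1 (0.46).

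MRPS18 read 10.42, 10.13 and 9.95 in Control and 10.70, 10.68 and 10.61 in IRAK4(KD), a difference of 0.49 ± 0.11 (limma, adjusted p = 0.00932). MRPS5 read 8.97, 8.97 and 8.68 in Control and 9.37, 9.34 and 9.28 in IRAK4(KD), a difference of 0.46 ± 0.11 (adjusted p = 0.0128). Both calls were lost without Control replicate 3, the lowest Control array of each gene, at 0.38 and 0.36. MRPL1 read 9.27, 9.29 and 9.19 in Control and 9.74, 9.67 and 9.70 in IRAK4(KD). Its difference of 0.45 ± 0.09 (adjusted p = 0.00572) held its call when any array was left out.

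Beside these, 5 of the 15 other mitoribosomal proteins rose in IRAK4(KD) and QRI5 fell (median 0.21). MNP1 read 10.20, 10.31 and 10.29 in IRAK4(KD), 0.44 above Control. Of 13 translation factors 3 rose, among them RRF1 by 0.53, and of 14 tRNA synthetases 4 rose, among them MSF1 by 0.57. MAM33 rose by 0.49, with 10.01, 10.03 and 10.11 in IRAK4(KD). The respiratory genes had 10 rises and 0 falls of 45 (median 0.20), whereas the cytosolic ribosomal protein genes had 3 rises and 0 falls of 127 (median 0.01).

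In IRAK4, the catalytically active form, the share of mitoribosomal genes that fell was near that of all genes. A smaller share rose than over all genes. Of the 65 genes 14 fell and 1 rose, where 16.4% of all genes fell and 28.2% rose, so that 21.5% of the mitoribosomal genes fell. The median difference was -0.10, against 0.08 over all genes. In 43 genes the difference was below 0, called or not, where it was below 0 in 2287 of all 5449 genes. In 26 genes the IRAK4 arrays lay wholly below those of Control, as in 24.1% of all genes. Of the large subunit genes 9 of 37 fell and of the small subunit genes 5 of 28. The number of falls was 9 (13.8%) without Control replicate 1 and 9 without IRAK4 replicate 1.

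MRP21 (YBL090W, bS21m), a small subunit gene of the S21 family, fell most. It read 9.26, 9.26 and 9.28 in Control and 8.68, 8.76 and 8.64 in IRAK4, a difference of -0.58 ± 0.10 (limma, adjusted p = 0.00034). MRP2 and MRPL32, with the values given above, fell by 0.57 ± 0.10 (adjusted p = 0.000331) and 0.53 ± 0.07 (adjusted p = 3.50e-05). MRPL39 read 10.66, 10.60 and 10.54 in Control and 10.03, 10.04 and 10.17 in IRAK4, with 9.89, 10.12 and 9.92 in IRAK1, 10.79, 10.80 and 10.91 in IRAK4(KD) and 10.98, 10.99 and 11.12 in IRAK2. Its IRAK4 arrays lay in the range of the IRAK1 arrays or just above it, and the difference from Control was -0.52 ± 0.08 (adjusted p = 0.00018). MRPS8 read 9.16, 9.34 and 9.11 in IRAK4, a difference of -0.49 ± 0.11 from Control (adjusted p = 0.00195).

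RSM22 read 7.70, 7.63 and 7.78 in Control and 7.22, 7.30 and 7.35 in IRAK4, a difference of -0.42 ± 0.09. MRPL37 and MRPL49 differed by -0.40 ± 0.10 and -0.30 ± 0.08. MRPL15 (-0.34 ± 0.12), MRP7 (-0.28 ± 0.11) and MRPL50 (-0.27 ± 0.09) were called, close to the threshold. MRP7 lost its call when any Control or IRAK4 array was left out (-0.32 to -0.24), MRPL15 when any but IRAK4 replicate 2 was (-0.37 to -0.27), and MRPL50 without Control replicate 1, IRAK4 replicate 1 or IRAK4 replicate 2 (-0.29 to -0.19). The single riser was MRPL9 (YGR220C, uL3m), of the L3 family, with 10.07, 10.07 and 9.98 in Control and 10.23, 10.22 and 10.37 in IRAK4. Its difference of 0.23 ± 0.09 (limma, adjusted p = 0.0487) lost its call when any Control or IRAK4 array was left out (0.18 to 0.26) and when the arrays were centred on their medians (0.16) or quantile normalized (0.20).

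In the other mitoribosomal proteins IMG1 and QRI5 fell and PPE1 rose in IRAK4, of 15. PPE1 read 8.15, 8.04 and 8.30 in IRAK4, 0.86 above Control. The translation factors had 4 rises and 0 falls of 13 (30.8% higher, near the 28.2% of all genes), with GTF1 at 0.76 and HER2, another amidotransferase subunit, at 0.46. Activators of single messengers had 5 rises and 2 falls of 16 (31.2% and 12.5%, near the 28.2% and 16.4% of all genes). Cytosolic ribosomal protein genes fell in 58 of 127 cases with 0 rises (median -0.27), and the respiratory genes had 10 rises and 2 falls of 45 (22.2% and 4.44%, both below the shares of all genes).

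IRAK4 against IRAK4(KD) sets the protein against its inactive form. Of the 65 genes 32 were lower in IRAK4 and 0 were higher, where 15.3% of all genes were lower and 19.7% higher, so that 49.2% of the mitoribosomal genes were lower. The median difference was -0.27, against 0.00 over all genes. In 62 genes the difference was below 0, called or not, where it was below 0 in 2715 of all 5449 genes. In 41 genes the IRAK4 arrays lay wholly below those of IRAK4(KD), as in 25.1% of all genes. Of the large subunit genes 20 of 37 were lower and of the small subunit genes 12 of 28.

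MRPL39 differed most, at -0.75 ± 0.08, or 1.68-fold lower in IRAK4 (limma, adjusted p = 1.01e-05), with no IRAK4 array above 10.17 and no IRAK4(KD) array below 10.79. MRPS8 read 9.80, 9.72 and 10.01 in IRAK4(KD), and IRAK4 was lower by -0.64 ± 0.11. MRP7 read 8.92, 8.85 and 9.01 in IRAK4 and 9.58, 9.49 and 9.47 in IRAK4(KD), a difference of -0.59 ± 0.11. MRPL7 and MRP2 differed by -0.58 ± 0.14 and -0.58 ± 0.10. In all 5 genes the arrays of the groups stood apart. The comparisons of IRAK4 and IRAK4(KD) with Control share the Control arrays, and none of the 5 genes was called in IRAK4(KD) against Control. MRP2 differed from Control by -0.57 in IRAK4 and 0.01 in IRAK4(KD), and MRPL7 by -0.34 and 0.24, neither of which was called. MRP7 differed by -0.28, which was called, and 0.31, which was not. RSM19 (-0.20 ± 0.07, adjusted p = 0.0438) lost its call in this comparison when any array but IRAK4(KD) replicate 1 was left out of the 6, and RSM22 (-0.31 ± 0.09) when IRAK4 replicate 1 or IRAK4(KD) replicate 3 was.

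In the same comparison 7 of the 15 other mitoribosomal proteins were lower in IRAK4 and 1, PPE1, was higher (median -0.27). PUF3 was lower in IRAK4 than in IRAK4(KD) by -0.85, with 7.85, 7.71 and 8.24 against 8.91, 8.73 and 8.73. HAP3 was lower by -0.97, with 7.47, 7.24 and 7.72 against 8.32, 8.55 and 8.48, and in neither gene did the groups overlap. Of the 11 regulators 2 were lower and 2 higher, with HAP2 among the higher ones. Each share was 18.2%, near the 15.3% and 19.7% of all genes, and the median of the list was -0.02. Of the tRNA synthetases 5 of 14 were lower and of the translation factors 3 of 13, while GTF1 was higher by 0.87. Of the 127 cytosolic ribosomal protein genes 62 were lower and 0 higher (median -0.27), and of the 45 respiratory genes 7 were lower and 1 higher (median -0.03). The part of the cytosolic ribosomal protein genes' change in that of the mitoribosomal genes was not tested here either.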

How the data were processed

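Biotin-labelled total RNA was measured on Affymetrix yeast arrays, per the labels. The deposited log2 values were made by the authors with GCRMA, which corrects background and summarises the probes of a probe set, per the submitters' processing notes; its version is not given in the sources used here. They were used as deposited. Scanner files and detection calls were not used here, and 3 arrays per group limit the precision.

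Of 5716 probe sets 5498 were paired with 1 gene by the platform annotation and 218 were left out; the probe set with the highest mean was kept for 47 genes with several, and 12 symbols were updated through RefSeq. The 5449 genes were fitted on all 15 arrays with limma 3.58.1 in R 4.3.3 (lmFit, eBayes, two-sided, Benjamini-Hochberg per comparison), and 6 comparisons and the F test over groups were made. The procedure was tested on simulated data. Figures were drawn with matplotlib 3.10.9 in Python 3.11.15.

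The members, gene lists and tests were chosen with earlier results of these data known. Named genes are the 5 highest and 5 lowest called differences without overlap per comparison, the 5 smallest F test p, a list of genes with known roles (MRP1, MRP7, MRP10, MRP20, MRP49, MRP51, MRPL1, MRPL36, MRPL50, MRPS5, MRPS12, RSM7, RSM22 and MRPS8) and genes of the other lists. RefSeq lengths were used, and neighbours were found from the gene positions in the RefSeq table. No sequences were used, since no genome was used here. Pairing was checked through the correlation across genes between arrays of equal replicate number, after their group means were taken off. In IRAK1 against Control it was 0.19, 0.10 and 0.35, all above 0.1 before rounding. No label says what the replicate numbers share. All fits but the replicate block left this pairing out, also the main fit that gave the IRAK1 differences, standard errors and adjusted p. Alternatives were quantile normalization, median centring, the mean of probe sets, a filter on low values, array weights, robust eBayes with a trend, the 6 arrays compared, the replicate block and each array left out.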

Additional observations from a re-analysis of the deposited data

How the results depend on the processing

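No median difference of the mitoribosomal genes changed sign in the alternatives run, and of the 88 medians 0 moved by more than 1 SD. The falls in IRAK1 numbered 58 to 63 and the genes higher in IRAK2 than IRAK1 62 to 64 over all alternatives. Of 1570 values of named called genes under alternatives 1479 kept sign and call, 91 lost the call and 0 reversed. Counted once per gene and comparison, 23 of 109 called results lost the call in some setting.

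Small counts moved. Median centring and quantile normalization each left 0 rises in IRAK4 and gave 1 fall in IRAK4(KD), the latter also with low-level genes left out. Array weights, whose estimate stopped before convergence, gave 4 rises and 22 falls in IRAK4, 37 rises and 4 falls in IRAK4(KD), and 36 rises and 3 falls in IRAK2. With only the 6 arrays compared there were 27 rises and 1 fall in IRAK4(KD) and 24 rises and 1 fall in IRAK2. The replicate block, run for all 6 comparisons, gave 0 rises in IRAK4 and 63 falls in IRAK1. It moved no other count of calls by over 1.5 times. Same-numbered arrays paired in no comparison other than IRAK1 against Control.

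Leaving out 1 array gave 0 to 2 rises and 9 to 17 falls in IRAK4, 1 to 29 rises and 0 to 2 falls in IRAK4(KD), 6 to 22 rises and 0 falls in IRAK2, 58 to 63 falls in IRAK1, 25 to 37 genes lower in IRAK4 than IRAK4(KD) and 62 to 64 higher in IRAK2 than IRAK1. The cause of these changes was not tested. With 3 arrays per group, small differences were not detectable in many genes, and detection calls to mark dim probe sets were not used here.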
